A study of Mus musculus with 2 samples.

Results

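The genes described here are the mouse fibroblast growth factors (FGFs), their receptors and the Sprouty and Spred inhibitors that damp FGF signals. They were taken by gene symbol from the protein-coding genes of GENCODE, and 33 of the 43346 genes in the tables met the rule: 22 FGF genes, 5 receptor genes, 3 Sprouty genes and 3 Spred genes. Spry3 also met it but had no row in the tables. Total RNA-seq was done on the hindbrain, which forms the cerebellum, pons and medulla, of B6NCrl mouse embryos at 14.5 days. There was 1 group with 2 replicates, each labelled as the hindbrain of 1 pup; the labels also give the sex as pooled, and give both samples the same donor. The pups were collected on different dates, so date and replicate cannot be told apart. No treatment, mutation or transgene is named in the labels.

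FGFs are signalling proteins of several subfamilies. Secreted FGFs bind receptor tyrosine kinases with the help of heparan sulphate chains, and the receptors signal through adaptor proteins, Ras and the MAP kinase cascade to ETS transcription factors. In the hindbrain, FGF8 and its relatives FGF17 and FGF18 come from the isthmic organizer at the border with the midbrain and pattern the cerebellum. FGF11 to FGF14, the FGF homologous factors, are not secreted; they stay inside the cell and bind voltage-gated sodium channels. The receptors FGFR1, FGFR2 and FGFR3 exist in IIIb and IIIc forms, which differ in an exon of the third immunoglobulin domain and so in the ligands they bind. IIIb forms are typical of epithelia and IIIc forms of mesenchyme and neural tissue.

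The libraries held 34929425 and 33510896 expected counts, the deposited estimates of reads per feature, and a gene without a count could lie at up to 0.0859 CPM, a count scaled to library size, in replicate 1 and 0.0895 CPM in replicate 2. That floor of 3 counts covers counting error only, since the reads carry no molecular identifiers. Levels are given as TPM, a share of all transcripts that is corrected for length and can be compared between genes. Of 10 genes that mark hindbrain position, 9 were at 1 TPM or more in both replicates, led by Hoxa5 at 141.8 and 141.4 TPM and Hoxb5 at 124.3 and 112.9 TPM. Of these 10, 8 were called lower in replicate 2 and none higher by the test described next (5 lower with TMM factors, 4 with spike-in scaling). None of 8 forebrain genes reached 1 TPM in both. Differences between the 2 libraries were tested on counts with an exact binomial test, adjusted by Benjamini-Hochberg over 17664 genes with a mean of at least 10 counts. Since both libraries belong to 1 group, a call says only that their counts differ by more than random sampling of reads, for technical or other reasons. Of all genes tested, 34.4% were called, 15.7% higher in replicate 2 and 18.7% lower, and their median log2 ratio of TPM + 1 was 0.04. In bulk tissue, fewer cells of a type and less RNA per cell cannot be told apart.

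Of the 33 genes, 19 were at 1 TPM or more in both replicates, beside 62.5% of all protein-coding genes. These were 5 of 18 secreted FGFs, all 4 intracellular FGFs, 4 of 5 receptors, all 3 Sprouty genes with a row and all 3 Spred genes. A further 4 genes, Fgf1, Fgf2, Fgf17 and Fgfr4, passed 1 TPM in replicate 2 only. By summed level, the intracellular FGFs came first with 188.8 ± 31.0 TPM (SD, n = 2), followed by the receptors with 107.0 ± 2.46 TPM, the secreted FGFs with 47.5 ± 8.65 TPM, Sprouty with 38.2 ± 2.91 TPM and Spred with 31.4 ± 0.905 TPM (SD, n = 2 each). FGF11 to FGF14 thus held 80.1% of all FGF transcripts in replicate 1 and 79.7% in replicate 2. Sprouty lay above Spred in both replicates, at 36.2 and 40.3 TPM against 30.8 and 32.1 TPM.

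**Figure D1:**
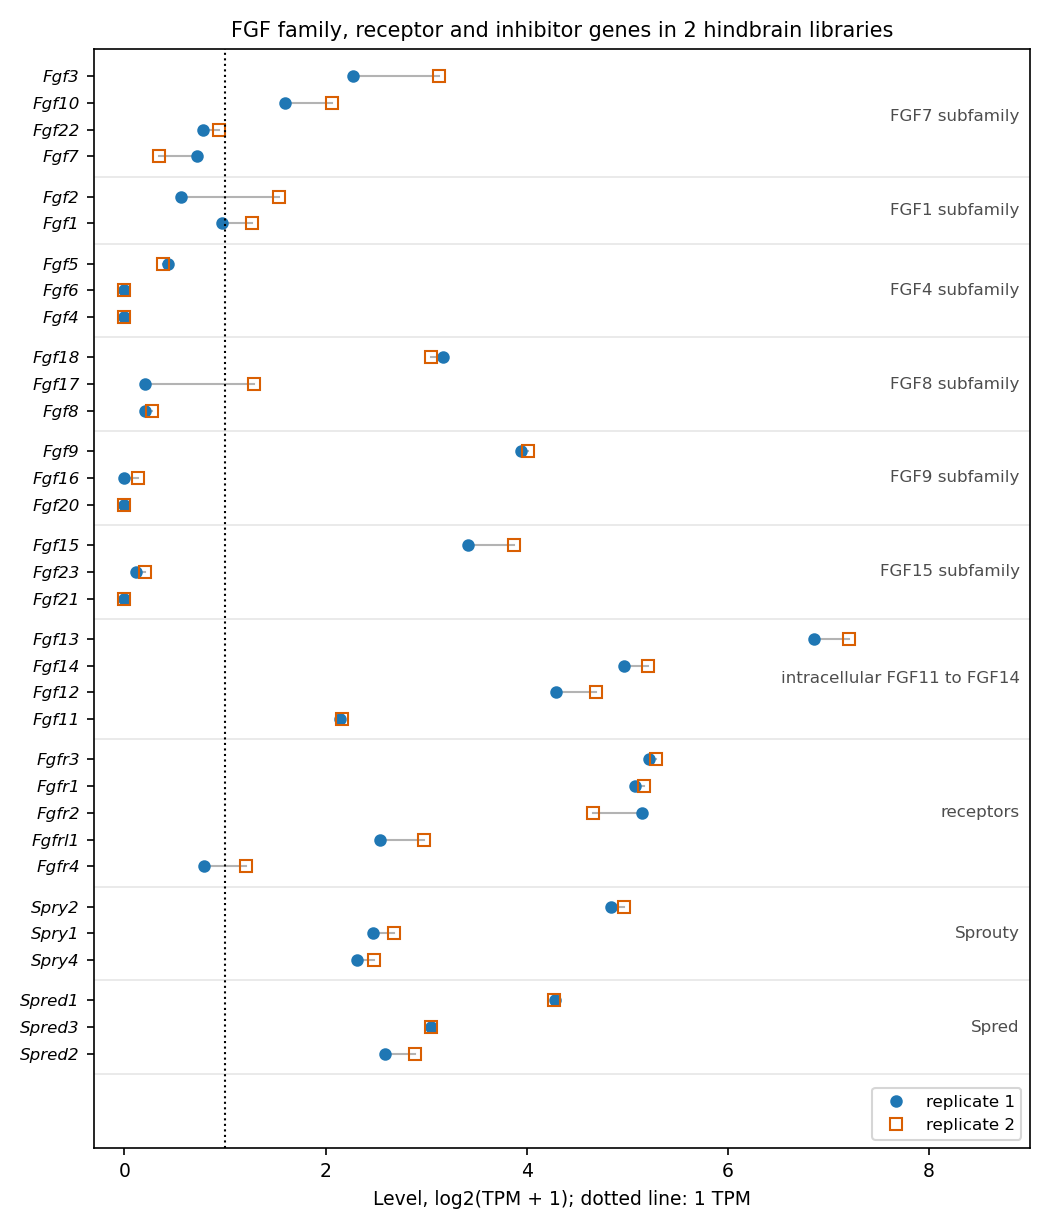
Level of each of the 33 genes as log2(TPM + 1) on the horizontal axis, with replicate 1 as filled circles and replicate 2 as open squares, grouped by subfamily or role; the dotted line is 1 TPM. Fgf13 stands highest, at 114.7 and 146.7 TPM, and most secreted FGFs lie left of the line.

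Fgf9, a ligand made by neurons and by many embryonic epithelia, was the most abundant secreted FGF. It was at 14.4 TPM in replicate 1 and 15.1 TPM in replicate 2 (14.8 ± 0.530 TPM, SD, n = 2), from 548 and 565 counts. The replicates were close, and the counts did not differ by the exact binomial test (adjusted p = 0.405). Its relatives Fgf16 and Fgf20 were near or at 0: Fgf16 had 0 and 3 counts, and Fgf20 had none in either library.

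Fgf15, the mouse counterpart of human FGF19, was next, at 9.67 and 13.6 TPM, from 354 and 455 counts. Replicate 2 was higher by 0.45 on the log2(TPM + 1) scale (adjusted p = 0.00031, exact binomial test). An antisense RNA that overlaps Fgf15, Gm26793, was at 1.91 and 3.13 TPM; the strand setting of the counting is not given in the sources used here, so reads of the pair may be mixed. Fgf15 lies on chromosome 7 (144896531 to 144900953, GRCm38) beside Fgf4 and Fgf3, within 62.9 kb that holds no other protein-coding gene. These neighbours were at different levels. Fgf3 was at 3.83 and 7.74 TPM and Fgf4, between them, had 0 counts in both libraries.

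Fgf3, which in the embryo takes part in hindbrain segmentation and inner ear induction, was higher in replicate 2 by 0.86 on the log2(TPM + 1) scale (180 and 312 counts, adjusted p = 3.1e-09, exact binomial test). Fgf10, a ligand of IIIb receptors in the same subfamily, was at 2.03 and 3.17 TPM from 174 and 249 counts, and replicate 2 was again higher (0.46 on the log2 scale, adjusted p = 0.00036, exact binomial test). The other members of this subfamily stayed below 1 TPM. Fgf7, also a IIIb ligand, was at 0.65 and 0.27 TPM, and its 24 and 11 counts did not pass the test (adjusted p = 0.103, exact binomial test). Fgf22, which organizes synapses, was at 0.72 and 0.92 TPM from 6 and 7 counts, too few to test.

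The FGF8 subfamily, the ligands of the isthmic organizer, was uneven. Fgf18 was at 7.96 and 7.29 TPM (168 and 138 counts) and did not differ between the libraries by the exact binomial test (adjusted p = 0.301). Fgf8 itself had 3 and 4 counts, or 0.15 and 0.21 TPM, which is at the floor of detection. Fgf17 was at 0.15 TPM in replicate 1 and 1.45 TPM in replicate 2, from 5 and 45 counts. This was the widest gap among the FGF genes, receptors and inhibitors tested, 9.67-fold in TPM and 1.09 on the log2(TPM + 1) scale, which understates changes of low genes (adjusted p = 2.5e-08, exact binomial test). By counts scaled to the gene total of each library, Fgf17 was the only one of the 33 genes called that also differed by at least 2-fold. Of all genes tested, 3.12% met both conditions by that measure. In TPM itself, Fgf3 was also just past that limit, at 2.02-fold.

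Genes of the midbrain-hindbrain border were compared beside these ligands. Of 11, 3 were higher in replicate 2 and 3 were lower, and the median log2 ratio was -0.01. Cnpy1, a regulator of FGF receptor maturation at the isthmus in fish, was at 1.79 and 24.7 TPM (adjusted p = 4.1e-247, exact binomial test). The engrailed genes were higher as well, En1 at 2.13 and 5.05 TPM and En2 at 0.05 and 0.79 TPM. Pax8 (26.2 and 19.6 TPM), Pax2 (17.5 and 15.2 TPM) and Lmx1b (6.87 and 5.37 TPM) were lower. Gbx2, which sets the hindbrain side of the border, was level at 33.4 and 33.3 TPM, and Otx2, which marks the midbrain side and the choroid plexus, was at 14.2 and 16.2 TPM. The counts of 3 and 3 were found with each scaling of the libraries. Their part in the differences of Fgf17, Fgf3, Fgf10 and Fgf15 was not tested.

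Among the remaining secreted FGFs, Fgf1 and Fgf2, ligands without a signal peptide, were near 1 TPM. Fgf1 was at 0.96 and 1.41 TPM from 80 and 103 counts (adjusted p = 0.125, exact binomial test). Fgf2 was at 0.48 and 1.90 TPM but from 5.71 and 13.5 counts only, and 75.9% of its replicate 2 level sat in 1 unnamed transcript of 322 bases. Nudt6, which overlaps Fgf2 on the opposite strand, was at 6.58 and 5.38 TPM. Fgf5 was at 0.35 and 0.30 TPM, and Fgf23, a hormone of phosphate balance, had 3 and 5 counts. Fgf6, a muscle FGF, and Fgf21, a liver hormone, had no counts. Fgf6 and Fgf23 are neighbours on chromosome 6, within 65.8 kb. Kl and Klb encode the klotho co-receptors that the hormone-like FGFs need. Kl was at 0.89 and 1.47 TPM and Klb at 0.07 and 0.08 TPM, while Fgf15 was at 9.67 and 13.6 TPM.

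The intracellular FGFs were all present, in the order Fgf13, Fgf14, Fgf12 and Fgf11 in both replicates. Fgf13, which binds sodium channels and microtubules in young neurons, was at 114.7 and 146.7 TPM (130.7 ± 22.6 TPM, SD, n = 2), from 4181 and 4734 counts, and stood at percentile 94.5 of protein-coding genes. It alone held 55.1% and 55.5% of the FGF transcripts. Replicate 2 was higher by 0.35 on the log2(TPM + 1) scale (adjusted p = 5.4e-13, exact binomial test). Fgf14, mutated in a human spinocerebellar ataxia, was at 30.3 and 35.8 TPM, higher in replicate 2 by 0.24 (adjusted p = 0.00053, exact binomial test). Fgf12 was at 18.5 and 24.8 TPM, higher by 0.40 (adjusted p = 1.7e-08, exact binomial test). Fgf11 was at 3.43 and 3.47 TPM and did not pass the test (adjusted p = 0.908, exact binomial test).

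Transcripts of these genes can start at different first exons and then give proteins with different N-termini. Fgf13-202 was at 30.4 TPM in replicate 1 and 54.1 TPM in replicate 2, with deposited credibility intervals of 20.6 to 35.8 and 42.2 to 59.7 TPM. The intervals do not overlap, so this transcript differed beyond the estimate's own error. Fgf13-201 was at 28.9 and 31.3 TPM and Fgf13-203 at 24.4 and 19.2 TPM, both with overlapping intervals. Fgf13-205 (15.7 and 21.2 TPM) and Fgf13-206 (11.7 and 16.7 TPM) also overlapped. Both are short, at 575 and 456 bases. Of the 4181 and 4734 counts of Fgf13, Fgf13-205 held 159.5 and 197.5 and Fgf13-206 held 89.1 and 116.6. They weigh more in TPM than in counts, so the summed TPM of Fgf13 and its share of FGF transcripts rest partly on them. Fgf14 was mostly 1 transcript: Fgf14-202 held 87.4% and 86.4% of the gene. Its level was 26.4 and 31.0 TPM, against 3.83 and 4.86 TPM for Fgf14-201. Fgf12 had a single transcript in the tables, Fgf12-201, so its forms were not compared.

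**Figure D2:**
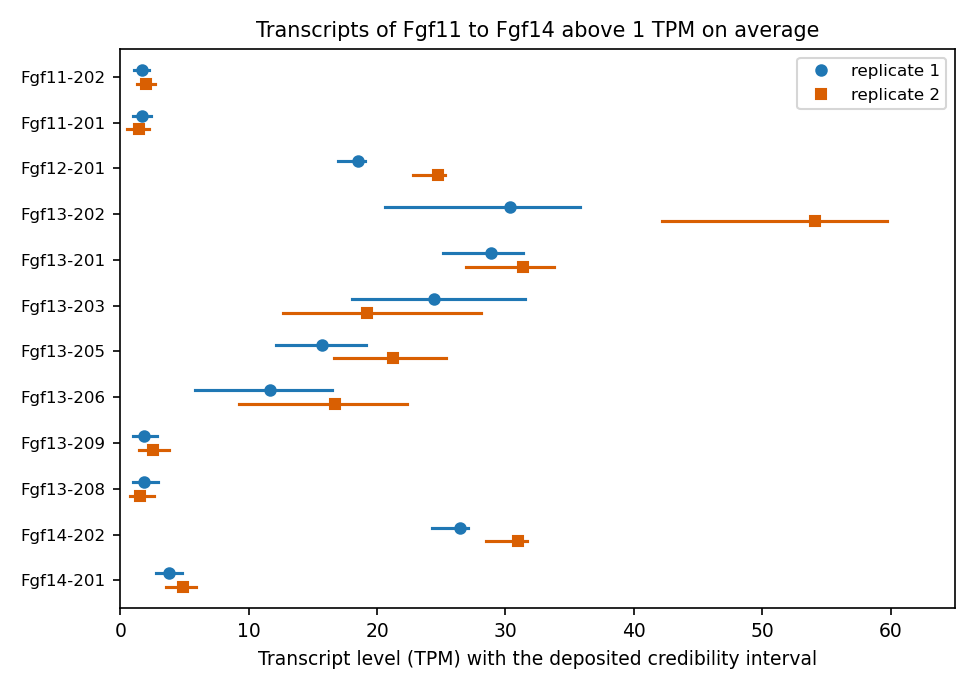
Level of each transcript of Fgf11, Fgf12, Fgf13 and Fgf14 with a mean above 1 TPM (horizontal axis, TPM), replicate 1 as circles and replicate 2 as squares; lines are the deposited credibility intervals, whose level is not stated in the files. Fgf13-202, Fgf12-201 and Fgf14-202 have intervals that do not overlap between replicates, while Fgf13-203 is lower in replicate 2 with overlapping intervals.

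The partners of the intracellular FGFs were measured too. Of 7 genes, 6 were at 1 TPM or more in both replicates, 2 were called higher in replicate 2 and none lower (median log2 ratio 0.08). Scn3a, the main sodium channel of embryonic neurons, was at 52.4 and 60.4 TPM, and Scn2a, found on young axons, at 40.9 and 48.0 TPM; both were called higher. Mapk8ip2, a scaffold that binds these FGFs, was at 49.5 and 53.5 TPM and Scn1a at 13.7 and 13.3 TPM, neither called. Of 7 general neuron genes, 3 were called higher in replicate 2 and none lower, and their summed level was 4376 and 4796 TPM. Tubb3 was at 1354 and 1427 TPM, not called, and Gap43 at 1160 and 1366 TPM, called higher. With spike-in scaling all 7 were called higher. The part of neuron content in the levels of Fgf12, Fgf13 and Fgf14 was not tested.

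Among the receptors, Fgfr3 was at 36.2 and 37.9 TPM (37.0 ± 1.17 TPM, SD, n = 2), Fgfr1 at 32.6 and 34.9 TPM (33.8 ± 1.60 TPM) and Fgfr2 at 34.4 and 24.3 TPM (29.3 ± 7.11 TPM). The order of the means was Fgfr3, Fgfr1, Fgfr2. Fgfr2 lay above Fgfr1 in replicate 1 and below it in replicate 2, so these neighbours did not differ beyond their spread. Fgfr3, which marks ventricular zone progenitors and astrocyte precursors, lay above Fgfr1 in both replicates, but their deposited credibility intervals overlapped in each. In replicate 1 they were 34.3 to 38.2 TPM for Fgfr3 and 31.1 to 36.1 TPM for Fgfr1. Fgfrl1, a receptor without a kinase domain, followed at 4.81 and 6.89 TPM. Fgfr4 was last at 0.73 and 1.31 TPM, from 50 and 69 counts, and made up 0.703% and 1.33% of FGFR1 to FGFR4 transcripts.

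Fgfr2 was the only gene of the 33 called lower in replicate 2. It had 1787 and 1368 counts, and the difference was -0.48 on the log2(TPM + 1) scale (adjusted p = 3.4e-09, exact binomial test). Fgfrl1 was higher by 0.44 (263 and 330 counts, adjusted p = 0.0060, exact binomial test). Fgfr1 and Fgfr3 did not pass the test (adjusted p = 0.833 and 0.931, exact binomial test), nor did Fgfr4 (adjusted p = 0.125, exact binomial test). Part of the Fgfr2 level came from Fgfr2-217, at 10.4 and 8.44 TPM, a transcript that joins the last 5 exons of Fgfr2 to 2 exons shared with Ctbp2. Ctbp2, a transcriptional co-repressor gene, was at 57.2 and 55.0 TPM, and reads in the shared exons cannot be told apart. The shared part is 314 of the 2425 bases of Fgfr2-217. Leaving out this transcript therefore also takes away reads of exons that belong to Fgfr2 alone. Without Fgfr2-217, Fgfr2 was at 23.9 and 15.9 TPM (19.9 ± 5.70 TPM, SD, n = 2), below Fgfr1 in both replicates. It was still lower in replicate 2 (-0.56 on the log2(TPM + 1) scale, adjusted p = 4.6e-06, exact binomial test). The test used counts, and by counts scaled to the gene totals the difference did not widen. That log2 ratio was -0.33 for the whole gene and -0.31 without Fgfr2-217. The setting without Fgfr2-217 was chosen after seeing the data.

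Genes of the choroid plexus and of the meninges were lower in replicate 2 together with Fgfr2. Of 6 choroid plexus genes 5 were lower, with a median log2 ratio of -0.65 and a summed level of 1929 and 1166 TPM; Ttr, which encodes the thyroid hormone carrier of that epithelium, was at 1825 and 1094 TPM, and Folr1 at 54.6 and 34.3 TPM. Of 8 genes of meninges and fibroblasts 6 were lower, with a median log2 ratio of -0.25 and a summed level of 742.1 and 616.3 TPM, led by Col3a1 at 307.9 and 260.1 TPM and Col1a2 at 157.9 and 131.7 TPM. The part of these tissues in the Fgfr2 difference was not tested.

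The transcripts of the receptors were sorted by the exon of the third immunoglobulin domain that they hold. The exons were found by their coordinates in GENCODE M21. The pair of Fgfr3, the receptor with the highest mean TPM, is shown from its GRCm38 transcripts, because the choice between such exons decides which form of receptor the hindbrain makes. Capitals mark bases that match between the 2 exons when aligned.
Fgfr3 IIIc, chr5:33732117-33732261 (plus strand): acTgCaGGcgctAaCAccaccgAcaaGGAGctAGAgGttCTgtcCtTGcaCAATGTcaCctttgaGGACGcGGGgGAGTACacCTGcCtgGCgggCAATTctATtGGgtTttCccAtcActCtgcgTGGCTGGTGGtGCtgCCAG
Fgfr3 IIIb, chr5:33731281-33731431 (plus strand): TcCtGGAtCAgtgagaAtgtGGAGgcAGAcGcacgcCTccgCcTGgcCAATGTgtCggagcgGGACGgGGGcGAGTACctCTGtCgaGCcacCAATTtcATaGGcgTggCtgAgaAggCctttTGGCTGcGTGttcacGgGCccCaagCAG
The IIIc exon has 145 bases and the IIIb exon 151, and 78 bases match, or 49.7% of the aligned positions.

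Among transcripts that hold 1 of the 2 exons, IIIc was the main form in all 3 receptors. Of the TPM of all Fgfr1 transcripts, with or without these exons, IIIc held 81.3% and 84.7% (83.0% ± 2.41, SD, n = 2). The IIIb transcripts of Fgfr1 were estimated at 0 counts in both libraries. Reads were divided among transcripts that share most exons, so this is no count of 0 reads: the deposited posterior mean put IIIb at 0.806% and 1.23% of Fgfr1. A transcript with both exons, Fgfr1-208, held 3.10% and 3.47%; it is annotated as a target of nonsense-mediated decay. Of the TPM of all Fgfr3 transcripts, the IIIc exon held 87.4% and 89.3% (88.4% ± 1.36, SD, n = 2) and IIIb 1.49% and 2.98%. The IIIb level of Fgfr3 rests mainly on Fgfr3-211, at 0.54 and 1.13 TPM, whose lower bound is near 0 in both replicates.

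Fgfr2 had the highest estimated share of IIIb, and its largest part was in transcripts with neither exon by TPM. Its IIIc exon made up 38.6% and 47.5% (43.1% ± 6.29, SD, n = 2) and IIIb 4.66% and 8.43%, and 56.7% and 44.1% lay in transcripts with neither exon. Among transcripts with 1 of the exons, IIIc was 89.2% and 84.9% in Fgfr2, 98.3% and 96.8% in Fgfr3 and 100% in Fgfr1 (99.0% and 98.5% by posterior mean). The IIIb signal of Fgfr2 was small: 1.6 and 2.05 TPM, from 81 and 103 counts, nearly all from Fgfr2-208 and Fgfr2-211. Fgfr2-208, at 1.23 and 0.99 TPM, has a lower bound near 0 in both replicates and posterior means of 0.61 and 0.41 TPM, while the lower bounds of Fgfr2-211 were 0.055 and 0.27 TPM. So the IIIb share of Fgfr2 is uncertain, as is that of Fgfr3. In absolute level IIIc was 13.3 and 11.6 TPM, and transcripts with neither exon were 19.5 and 10.7 TPM. In TPM the gap between the replicates was wider in transcripts with neither exon. In counts IIIc was at 1073 and 849 and transcripts with neither exon at 632 and 415. These gaps were similar in number of counts, but relative to level the gap was again wider in transcripts with neither exon. Their share of the gene by counts was 35.4% in replicate 1 and 30.4% in replicate 2. The largest transcript with neither exon was Fgfr2-217, and the next were retained introns, Fgfr2-221 at 3.88 and 1.40 TPM and Fgfr2-224, of 335 bases, at 2.69 and 0 TPM from 13.6 and 0 counts. Without Fgfr2-217, IIIc made up 55.5% and 72.8% of the gene and transcripts with neither exon 37.9% and 14.3%.

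**Figure D3:**
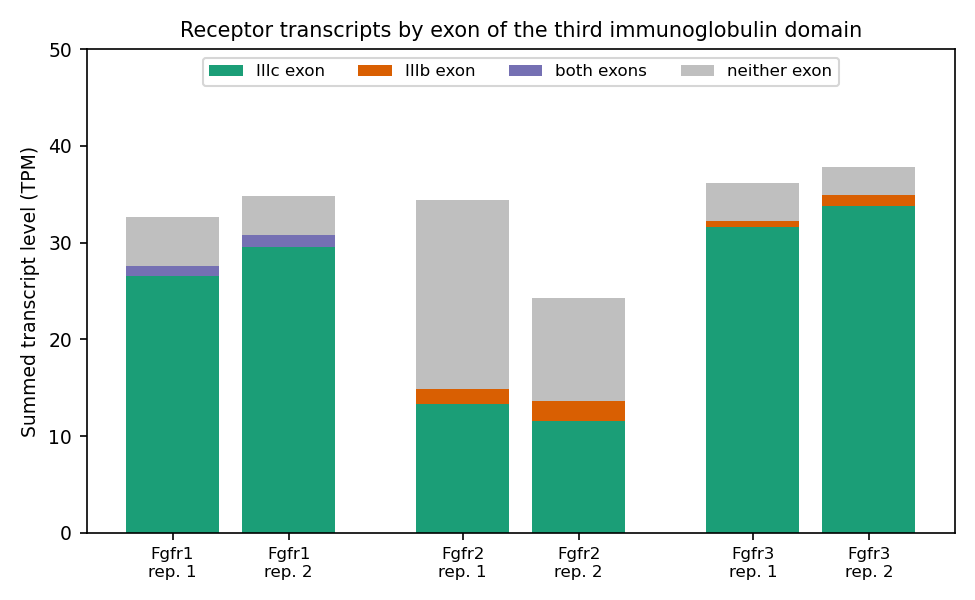
Summed transcript level in TPM (vertical axis, from 0) of Fgfr1, Fgfr2 and Fgfr3 in each replicate, split by the exon of the third immunoglobulin domain (IIIc, IIIb, both or neither). Transcripts with neither exon fill 19.5 TPM of Fgfr2 in replicate 1 and 10.7 TPM in replicate 2, and the IIIc part is 13.3 and 11.6 TPM.

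Named transcripts carried the forms. In Fgfr1, Fgfr1-202 was first at 15.9 and 18.6 TPM (48.6% and 53.3% of the gene by the deposited isoform percentage), then Fgfr1-203 at 5.83 and 6.69 TPM and Fgfr1-201 at 4.71 and 3.38 TPM. In Fgfr3, Fgfr3-201 was at 16.4 and 14.9 TPM, Fgfr3-209 at 8.0 and 13.2 TPM and Fgfr3-210 at 6.11 and 3.26 TPM. The intervals of these Fgfr3 transcripts are wide and overlap, so which of them led cannot be told from these libraries. In Fgfr2 the largest IIIc transcript was Fgfr2-207, at 8.24 and 7.34 TPM, followed by Fgfr2-215 at 5.03 and 3.93 TPM.

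A second choice concerns the end of the exon after the IIIb and IIIc pair, in the part next to the membrane, where FRS2 docks. It ends either before or after 6 bases, in capitals below, that code for a valine and a threonine and are needed for FRS2 binding.
Fgfr1 VT, chr8:25566884-25566913 (plus strand): aagagcatccctctgcgcagacagGTAACA
Fgfr2 VT, chr7:130196172-130196201 (minus strand): aagcgcatccccctgcggagacagGTAACA
In transcripts that hold a IIIb or IIIc exon, 96.3% and 96.1% of the Fgfr1 TPM was assigned to the longer end. Of these annotated Fgfr1 transcripts, 6 have the longer end and only 1 the shorter, Fgfr1-208, the target of nonsense-mediated decay. A coding Fgfr1 form with the shorter end had no transcript to take its reads, so this share is partly set by the annotation. In Fgfr2, where 8 such transcripts have the longer end and 7 the shorter, the longer end held 44.6% and 46.0%. The Fgfr2 TPM with the shorter end came from Fgfr2-207. The first immunoglobulin exon was in 75.2% and 74.3% of such Fgfr1 transcripts and in 33.8% and 28.9% of those of Fgfr2. All 4 shares differed less between replicates than between the 2 genes. For the longer end, splice choice and the set of annotated transcripts cannot be told apart in the difference between the genes.

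Of 7 splicing regulators known to act on these receptors, 5 were at 1 TPM or more in both replicates. Esrp1, which drives IIIb inclusion in epithelia, was at 0 and 0.09 TPM, and Esrp2 at 0.14 and 0 TPM. Hnrnph1 was at 335.1 and 349.2 TPM, Hnrnpf at 200.2 and 228.2 TPM, Ptbp2 at 157.7 and 180.0 TPM and Rbfox2 at 58.9 and 66.1 TPM. Of these, 3 were called higher in replicate 2 and none lower (median log2 ratio 0.12).

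The Sprouty and Spred inhibitors were all at 1 TPM or more. Spry2, which blocks the pathway between the receptor and Ras, was the highest at 27.7 and 30.3 TPM (1175 and 1177 counts). Spry1 was at 4.55 and 5.40 TPM and Spry4 at 3.95 and 4.57 TPM. Spred1, which brings the Ras inhibitor neurofibromin to the membrane and is mutated in Legius syndrome, was at 18.5 and 18.3 TPM, Spred3 at 7.26 and 7.29 TPM and Spred2 at 5.02 and 6.42 TPM. None of the 6 was called. The nearest was Spred1, at 2304 and 2066 counts (adjusted p = 0.058, exact binomial test). Spry1 was assigned to Spry1-203 at 3.54 TPM in replicate 1 and to Spry1-201 at 5.13 TPM in replicate 2; the intervals of each transcript overlap between replicates, so the gene total is the firmer value.

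In all, 24 of the 33 genes had enough counts to test, and 9 were called, 8 higher in replicate 2 and 1 lower. This stands beside 34.4% of all genes tested, 15.7% higher and 18.7% lower. The median log2 ratio of the 24 was 0.19, beside 0.04 for all genes tested, and the median absolute ratio was 0.27, beside 0.14. The same 9 were called after scaling by TMM factors, beside 35.5% of all genes (20.8% higher, 14.7% lower), and by DESeq2 size factors, beside 35.1% (19.5% higher, 15.6% lower). They were also the genes whose deposited intervals do not overlap, beside 22.6% of all genes (16.1% higher, 6.5% lower). Scaling to spike-ins called 18 of the 24, 17 of them higher and 1 lower, beside 43.7% of all genes (35.2% higher, 8.46% lower).

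Markers of several cell types moved in the same direction as the 8 genes called higher. Of 7 Purkinje and GABAergic cerebellar genes, 4 were called higher in replicate 2 and 1 lower, with a summed level of 356.3 and 413.7 TPM, led by Pcp4 (272.8 and 310.0 TPM) and Lhx1 (34.5 and 37.8 TPM, not called). Of 5 genes of the oligodendrocyte lineage, 4 were higher and none lower, summing to 110.3 and 140.1 TPM, with Olig1 at 73.8 and 95.8 TPM and Pdgfra at 17.5 and 20.1 TPM. Of 6 erythroid genes, 5 were higher and none lower, summing to 11821 and 14039 TPM, with Hba-a2 at 5337 and 6300 TPM and Hbb-bs at 2531 and 3209 TPM. Rhombic lip and granule lineage genes were mixed, 4 higher and 2 lower of 8. Radial glia genes (2 higher and 3 lower of 7) and astrocyte genes (2 higher and 2 lower of 6) were mixed too. Of 6 endothelium genes and of 6 microglia genes, 2 each were lower and none higher. Of 5 pericyte genes, 1 was higher and 1 lower. No gene of these lists was at 0 in both replicates. The 10 hindbrain position genes went the other way, with summed levels of 407.0 and 376.7 TPM and a median log2 ratio of -0.16. The part of cell makeup or of the dissected region in the differences of the FGF genes was not tested.

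**Figure D4:**
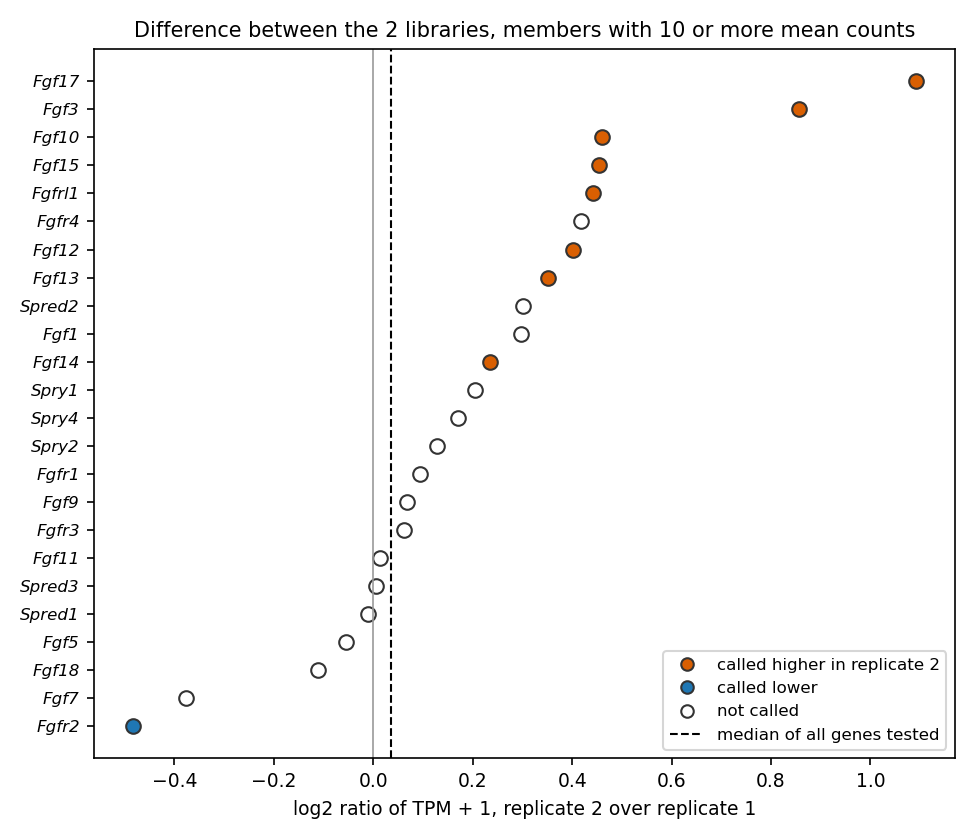
Difference between replicate 2 and replicate 1 as a log2 ratio of TPM + 1 (horizontal axis), for the 24 genes with a mean of at least 10 counts; filled points were called by the exact binomial test, orange for higher and blue for lower in replicate 2, and the dashed line is the median of all genes tested, 0.04. Fgf17 lies farthest to the right at 1.09, and Fgfr2 farthest to the left at -0.48.

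The rest of the pathway was present. All 22 genes of the MAP kinase cascade and its adaptors were at 1 TPM or more, among them the kinases Araf (268.6 and 285.1 TPM) and Map2k2 (174.2 and 184.4 TPM) and Hras (132.6 and 151.2 TPM). Of these 22, 4 were called higher and 3 lower (median log2 ratio 0.06). With TMM factors 9 were higher and 2 lower, and with spike-in scaling 12 were higher and none lower, so that split depends on scaling. All 8 other feedback inhibitors were present, 3 called higher and 2 lower (median log2 ratio 0.15), or 4 and 2 with TMM factors: Rasa1 was level at 66.7 and 67.4 TPM, Dusp4 lower at 35.1 and 30.4 TPM, Dusp6 higher at 21.4 and 25.0 TPM and Lrig1 higher at 13.9 and 18.6 TPM.

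Of 9 ETS factors and other target genes, 5 were called higher in replicate 2 and 1 lower, with a median log2 ratio of 0.35. This stands beside 15.7% higher and 18.7% lower of all genes tested. Ccnd2, a cyclin of cerebellar progenitors, was at 36.4 and 56.1 TPM (0.61 on the log2 scale, adjusted p = 3.5e-81, exact binomial test). Mycn was at 39.7 and 51.4 TPM, Ccnd1 at 21.1 and 27.3 TPM and Etv5, a direct target of FGF signals, at 16.8 and 21.8 TPM. Etv4, a close relative of Etv5, was level at 9.88 and 9.80 TPM. Egr1, at 2.43 and 2.96 TPM, and Fos, at 2.09 and 2.72 TPM, were not called, though Fos was called higher with spike-in scaling. The gene called lower was Etv6, at 5.40 and 4.96 TPM, and it was not called with TMM factors or spike-in scaling.

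Of 31 co-receptor and heparan sulphate genes, 29 were at 1 TPM or more, 10 called higher and 6 lower (median log2 ratio 0.09), or 11 and 4 with TMM factors. Sdc3, a heparan sulphate carrier of axons, was at 86.8 and 104.1 TPM (higher), Gpc3 at 96.4 and 81.9 TPM (lower) and Ext2, which builds the chains, at 56.1 and 62.7 TPM (higher). Sulf2, which trims sulphate from the chains, was at 108.6 and 114.0 TPM; its counts were called lower although its TPM was higher, and it was not called with TMM factors. Of 8 adhesion partners of the receptors, 5 were called higher and 1 lower (median log2 ratio 0.17), or 6 and none with TMM factors. Ncam1 was at 246.4 and 282.2 TPM, L1cam at 109.9 and 122.3 TPM and Cntn1 at 60.6 and 80.1 TPM, all higher, and Cdh2 was at 122.6 and 131.9 TPM.

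**Figure D5:**
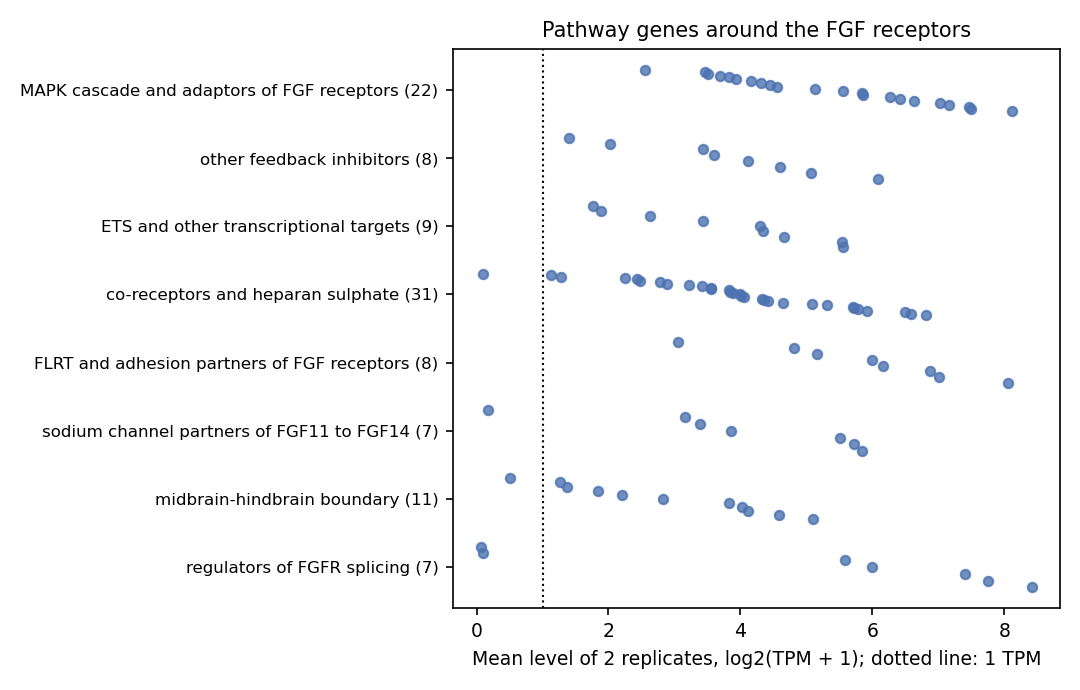
Mean level of the 2 replicates as log2(TPM + 1) on the horizontal axis for each gene of 8 lists around the FGF receptors, 1 point per gene, with the number of genes in brackets; the dotted line is 1 TPM. All 22 MAP kinase genes lie right of the line, while 2 splicing regulators, Esrp1 and Esrp2, lie near 0.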

How the data were processed

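Total RNA-seq tables of 2 hindbrain samples of 1 group were used. Per the labels, 10 ng of RNA longer than 200 nt, extracted with mirVana, entered each library with spike-in RNAs. Per the file headers and their description, the authors assigned reads to mm10 with annotation M4, separately per replicate; no aligner, quantification tool or strand setting is given in the sources used here. Expected counts, as deposited, are the authors' estimated reads per gene or transcript. TPM, as deposited, cover all features, and spike-ins held 8.15% and 7.72%. FPKM, as deposited, are the authors' values per length and per read total. Credibility bounds, deposited scores of the estimate, have no stated level. The deposited isoform percent is the authors' share of a gene held by a transcript.

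Symbols, exons and coordinates came from GENCODE M21 (GRCm38) by identifier without version, for 42462 genes and not for 884. Of 129 transcripts of the genes described, 128 had a name and 110 the same length in both annotations. The exon pair was aligned with Biopython 1.88. Detection was at least 1 TPM in both replicates. Ratios are replicate 2 over replicate 1 of TPM + 1, except where a count ratio is named and in the 2-fold minimum, which used scaled counts. Rounded expected counts entered an exact two-sided binomial test, relative to each library's gene total, where the mean was 10 or more, with a Benjamini-Hochberg threshold of 0.05. Tested on simulated data for replicate 2 against replicate 1 over 17664 genes, the test found 71.6% of 1.5-fold changes, 76.1% of 2-fold changes and 97.0% of 4-fold changes, and called 0.063% of genes with no change. Apart from the set changes, the simulated counts varied by counting error only, so these shares do not cover differences between pups.

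Every FGF ligand, receptor and inhibitor of the rule is given. Of each pathway list the text names the 4 genes highest in mean TPM and every gene called and at least 1.5-fold apart. Of cell type lists from which genes are named, it names the 2 highest. Lmx1b, Etv4, Etv6, Egr1, Fos, Kl, Klb, Esrp1 and Esrp2 were named after their values were seen. A pathway gene that this takes and some exon sequences are not reported here. The genes and lists were chosen with earlier results of these data known. Alternatives were FPKM, the posterior mean, TPM without spike-in, mitochondrial and ribosomal RNA, other limits, scaling by edgeR 4.0.16 (TMM), by DESeq2 1.42.0 or by spike-ins, other filters, a 2-fold minimum and each replicate alone; Fgfr2 without Fgfr2-217 was added after seeing the data. Python 3.11.15, scipy 1.17.1 and R 4.3.3 were used.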

Additional observations from a re-analysis of the deposited data

How the results depend on the processing

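No paired analysis was possible because the series has 1 group. Without spike-in, mitochondrial and ribosomal RNA in the TPM total, summed levels were higher: 121.4 TPM for receptors, 43.4 TPM for Sprouty and 35.6 TPM for Spred, which follows from the smaller total. Spike-in scaling called 18 genes, adding Fgf1, Fgf9, Fgfr1, Fgfr3, Fgfr4, Spry1, Spry2, Spry4 and Spred2. A 2-fold minimum on the ratio of counts scaled to the gene totals left 1. A mean of at least 100 counts gave 9, with Spred1 as a second gene called lower. The IIIc share of Fgfr1 was 89.8% by expected counts, 77.5% by posterior mean and 96.9% in protein-coding transcripts; that of Fgfr2 was 61.1% by expected counts and 52.4% in protein-coding transcripts; that of Fgfr3 was 93.1%, 84.7% and 97.0% in the same order. Without Fgfr2-217, an alternative chosen after seeing the data, the IIIc share of Fgfr2 was 64.1% and the receptors summed to 97.6 TPM. Counts weigh long transcripts more than TPM does. In Fgfr2, IIIc lay below transcripts with neither exon by TPM (43.1% and 50.4%) and above them by counts (61.1% and 32.9%). The number of genes detected was 19 to 23 by single replicates. The share of all calls that were higher in replicate 2 was 45.7% by gene total, 58.5% by TMM, 55.6% by DESeq2 and 80.6% by spike-ins, so its majority turns with the scaling; with spike-ins the median log2 count ratio of all genes tested was 0.10. Depth limits Fgf2, Fgf8, Fgf16, Fgf22 and Fgf23, which had under 10 mean counts.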
